A study of Mus musculus with 20 samples.

Results

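The set described here holds 8 genes of polyunsaturated fatty acid remodelling in mouse liver, of 45306 genes in the expression table: the desaturases Fads1 and Fads2, the elongases Elovl2, Elovl3 and Elovl5, the lysophospholipid acyltransferase Lpcat3, and the acyl-CoA synthetases Acsl3 and Acsl5. The genes were found by symbol, and they had been chosen from measured values of these same libraries in all 4 groups, so their differences between groups are given as a description and nothing is supported with them. Bulk mRNA sequencing was done on the liver of 20 C57BL/6 mice in 4 groups of 5. Control mice were wild type and kept at 24 °C, and CE mice were wild type and exposed to 4 °C for 3 h per day over 3 weeks. Sirt2-/- mice carried a whole-body knockout of Sirt2, which encodes an NAD-dependent deacetylase, made by gene editing of fertilized eggs at exons 5 to 7, and were kept at 24 °C. Sirt2-/-/CE mice carried that knockout and were exposed to cold in the same way. The mice were 5 weeks old at the start, and wild-type mice came from a supplier. Neither the sex, nor the time of day at death, nor the number of founder lines is given in the sources used here.

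Highly unsaturated fatty acids are made in the liver from the essential fatty acids of the diet by alternating desaturation and elongation in the endoplasmic reticulum. Fads2 catalyses the first desaturation and Fads1 a later one, with Elovl5 and then Elovl2 lengthening the chain in between and afterwards. Acyl-CoA synthetases activate the free acids, and Lpcat3 places polyunsaturated chains into membrane phospholipids. Several of these genes are known targets of the lipogenic factor SREBP1c, of the oxysterol receptor LXR (Nr1h3) and of PPARA. Elovl3 lengthens saturated and monounsaturated chains, and in mouse liver it is known to follow the time of day and to be higher in males.

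The libraries held 35499796 to 53917339 counts each. Sirt2 was at 41.3 to 44.5 CPM in Control, 40.2 to 56.2 in CE, 16.9 to 27.5 in Sirt2-/- and at most 27.5 in Sirt2-/-/CE livers, where CPM is the count scaled to the TMM-adjusted library size. The mutant groups thus lay below both wild-type groups without overlap (log2 fold change -0.94, SE 0.15, edgeR adjusted p = 0.0145 for Sirt2-/- against Control), and reads outside the targeted exons still count towards the gene. The summed level of 8 hepatocyte markers was 42200 to 78600 FPKM (fragments per kilobase of gene, scaled to library size), while 3 of 5 adipocyte markers (Plin1, Lep and Retn) were at 0 in every mouse. Y-linked genes were read in all 20 livers, where Xist reached at most 0.0906 FPKM. A clock score, which takes the mean log2 CPM of the clock outputs Ciart, Per3, Nr1d2, Tef and Dbp and subtracts that of Npas2, Clock and Arntl, was 4.61 to 6.64 in Control mice. It ranged from -1.25 to 5.69 in CE, from -3.21 to 5.44 in Sirt2-/- and from -1.42 to 4.14 in Sirt2-/-/CE mice. The mice below 0 were CE replicate 9, Sirt2-/- replicates 14 and 15, and Sirt2-/-/CE replicate 19. The members' fold changes in Sirt2-/- against Control, and several others, are also given without these 4 mice.

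All 8 genes lie on the autosomes of GRCm38 (mm10 in the labels) in the GENCODE vM21 annotation. Fads1 (chr19:10182888-10196877, + strand) and Fads2 (chr19:10062765-10101746, - strand) point away from each other, with 81141 bases between them. Elovl2 lies at chr13:41182381-41220405 (- strand), Elovl3 at chr19:46131897-46135694 (+ strand) and Elovl5 at chr9:77917364-77984519 (+ strand). Lpcat3 lies at chr6:124663027-124704418, Acsl3 at chr1:78657825-78707743 and Acsl5 at chr19:55251938-55297720, each on the + strand. No transcript of another gene matched these genes at 95% identity over 150 bases or more, except where the genes themselves overlap. Lpcat3 shares 334 of its 3268 exon bases with Emg1 on the other strand, Acsl5 shares 404 of 4864 with Zdhhc6 on the other strand, Acsl3 shares 244 of 4357 with Utp14b on the same strand, and Elovl3 shares 10 of 1975 with Pitx3 on the other strand. The library protocol in the labels names no step that marks the strand, so reads in the shared bases cannot be assigned to one gene by strand.

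RefSeq promoters (GRCm38.p6) were matched for 6 of the 8 genes. The stretches just upstream of Lpcat3, Acsl5 and Elovl5 are printed. Lpcat3 and Acsl5 had the lowest adjusted p-values of the 8 genes, and Elovl5 is the member whose level varied most closely with that of Acsl5 within groups. Each stretch starts 250 bases before the RefSeq start and ends where GENCODE places an exon, and that of Acsl5 lies inside the GENCODE gene, outside its exons. Capitals mark the motifs CCAAT and GGGCGG, and in Elovl5 also CACGTG, on either strand.
Lpcat3, chr6:124662854-124663026 (+ strand): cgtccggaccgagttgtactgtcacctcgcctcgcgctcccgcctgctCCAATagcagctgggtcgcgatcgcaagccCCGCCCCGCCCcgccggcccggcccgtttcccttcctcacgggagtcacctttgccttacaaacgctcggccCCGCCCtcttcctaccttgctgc
Acsl5, chr19:55253119-55253368 (+ strand): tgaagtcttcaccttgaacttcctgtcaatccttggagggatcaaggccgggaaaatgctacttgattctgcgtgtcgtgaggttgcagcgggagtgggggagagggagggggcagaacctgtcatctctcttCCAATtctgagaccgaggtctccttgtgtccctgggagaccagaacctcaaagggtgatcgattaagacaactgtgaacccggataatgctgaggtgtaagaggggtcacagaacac
Elovl5, chr9:77917115-77917363 (+ strand): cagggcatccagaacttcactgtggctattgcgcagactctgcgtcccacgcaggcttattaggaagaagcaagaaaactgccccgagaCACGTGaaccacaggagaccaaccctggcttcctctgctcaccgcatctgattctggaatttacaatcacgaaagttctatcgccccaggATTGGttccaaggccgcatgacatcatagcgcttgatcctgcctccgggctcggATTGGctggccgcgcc

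Lpcat3 held CCAAT at 202 to 198 bases before its RefSeq start and GGGCGG on the other strand at 172 to 167, at 167 to 162 and at 100 to 95 bases before it, the first and second of these sharing 1 base. In the unprinted rest it held CCAAT at 50 to 46 and at 8 to 4 bases, and GGGCGG at 69 to 64 bases on the other strand and at 22 to 17 on its own. Elovl5 held CACGTG at 161 to 156 bases and CCAAT on the other strand at 71 to 67 and at 17 to 13 bases before the start, and Acsl5 held CCAAT once, at 117 to 113 bases. Of the others, Fads2 held GGGCGG once, Elovl2 held it 5 times, and Acsl3 held it 5 times beside 1 CCAAT. Among 27025 promoters of the same 250 bases, 34.5% held CCAAT, 32.9% held GGGCGG and 6.05% held CACGTG on either strand. The letters AGGTCA (13.8% of promoters), TTATGNAA (3.23%) and TCACCCCA (1.26%) were in none of the 7 promoter entries of the members. These matches are a description of the letters in these windows.

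Per length, Fads2 had the highest level of the 8 genes and Acsl3 the lowest. Mean FPKM over the 20 mice was 221 ± 93.1 for Fads2, 130 ± 30.7 for Elovl2, 109 ± 34.6 for Fads1, 78.3 ± 20.4 for Acsl5, 73.3 ± 123 for Elovl3, 55.2 ± 21.6 for Elovl5, 32.3 ± 9.32 for Lpcat3 and 6.35 ± 1.96 for Acsl3 (SD, n = 20). Neighbours in this order overlapped in their ranges over mice, apart from Lpcat3 and Acsl3, where the lowest Lpcat3 value was 21.0 FPKM and the highest Acsl3 value 9.73 FPKM. The genes differed in how far mice of 1 group lay apart. The within-group SD of log2 CPM was 0.28 for Lpcat3, 0.31 for Acsl5, 0.35 for Elovl2, 0.49 for Fads1, 0.54 for Elovl5, 0.58 for Acsl3, 0.82 for Fads2 and 1.98 for Elovl3. Elovl3 varied more between mice of a group than 99.3% of the 10591 genes at a mean of at least 1 FPKM, and Lpcat3 more than 35.4% of them.

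**Figure D1:**
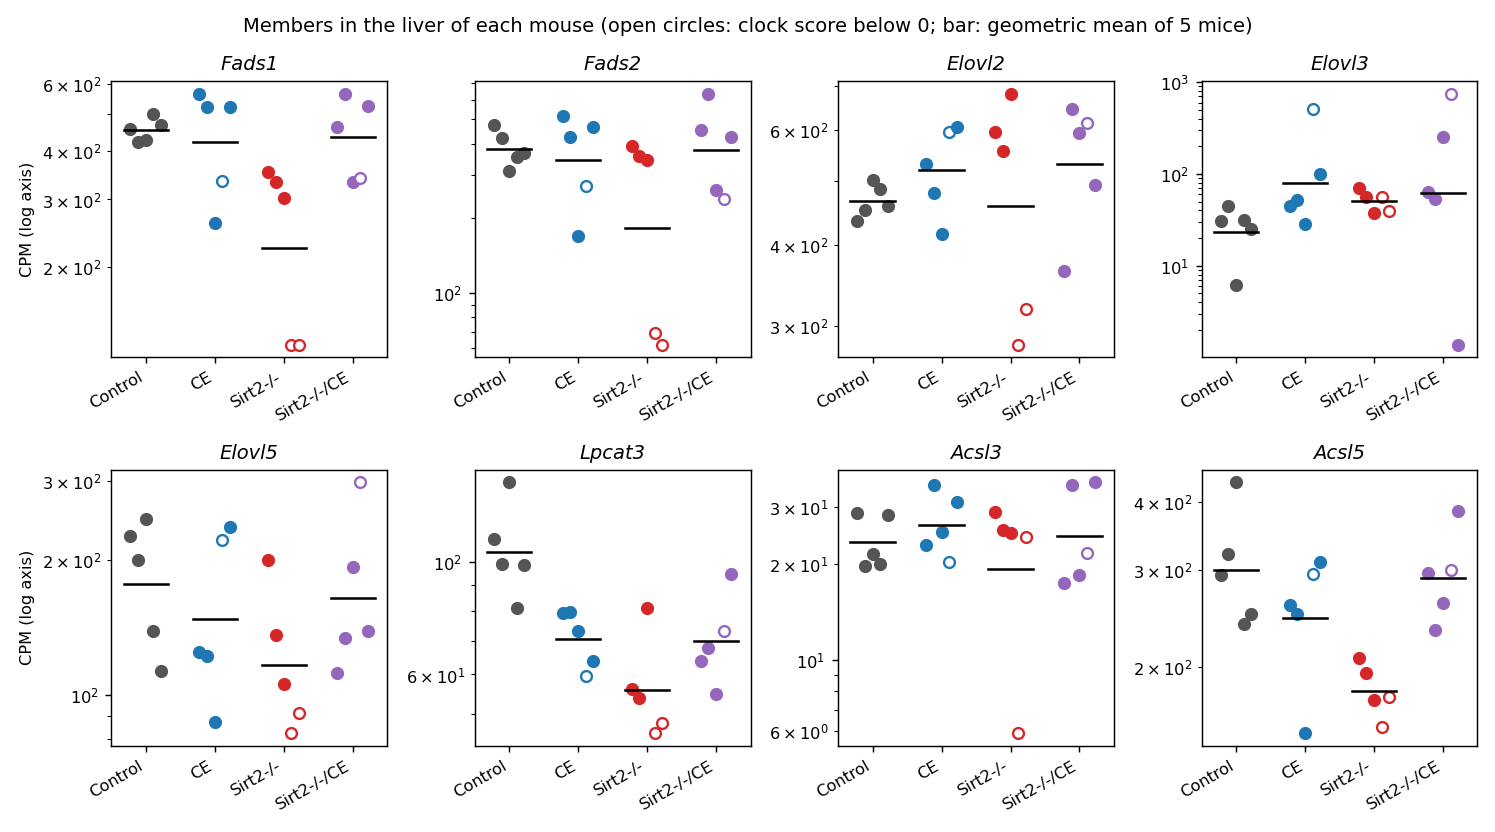
CPM of the 8 genes in each of 20 mice (log axes), 5 mice per group, with the geometric mean of each group as a bar and the 4 mice with a clock score below 0 as open circles. Fads1 and Fads2 were lowest in Sirt2-/- replicates 14 and 15, Lpcat3 was highest in Control, Acsl5 was lowest as a group in Sirt2-/-, and Elovl3 spread from 1.38 to 751 CPM.

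Fads1, which makes arachidonic and eicosapentaenoic acid from their precursors, was at 457, 423, 427, 500 and 467 CPM in Control, at 565, 523, 260, 335 and 521 in CE, at 353, 334, 302, 126 and 126 in Sirt2-/-, and at 464, 562, 333, 341 and 525 in Sirt2-/-/CE livers. All 5 Sirt2-/- mice lay below every Control mouse, while the CE and Sirt2-/-/CE ranges overlapped that of Control. The fitted log2 fold change was -0.87 (SE 0.28, adjusted p = 0.132) in Sirt2-/- against Control and 0.84 (SE 0.28, adjusted p = 0.559) in Sirt2-/-/CE against Sirt2-/-. Fads1 did not pass the threshold of 0.05 in these comparisons, nor in CE against Control, at -0.05 (SE 0.28).

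Fads2, the first enzyme of the route, was at 475, 422, 310, 352 and 368 CPM in Control, at 514, 425, 170, 271 and 465 in CE, at 392, 356, 342, 69.5 and 62.2 in Sirt2-/-, and at 454, 635, 260, 240 and 423 in Sirt2-/-/CE livers. In Sirt2-/- livers 3 of 5 mice lay inside the Control range, and replicates 14 and 15 lay far below all other mice. Its log2 fold change was -0.66 (SE 0.44, adjusted p = 0.514) in Sirt2-/- against Control and 0.72 (SE 0.44, adjusted p = 0.776) in Sirt2-/-/CE against Sirt2-/-. The ratio of Fads1 to Fads2 CPM was 0.96 to 1.42 in Control mice, 1.1 to 1.53 in CE mice and 0.885 to 1.42 in Sirt2-/-/CE mice. In Sirt2-/- mice it was 0.899, 0.937 and 0.884 in replicates 11 to 13 and 1.82 and 2.02 in replicates 14 and 15, which had the lowest clock scores of all mice (-2.45 and -3.21). Replicates 14 and 15 also had the lowest Slco1a1, a male-type liver gene, at 33.4 and 38.8 CPM against 360, 441 and 386 in replicates 11 to 13. Their sums of male-type liver genes, 4960 and 6020 FPKM, lay inside the range of the other mice. The part of these differences in the ratio was not tested. The other mice of a clock score below 0, CE replicate 9 and Sirt2-/-/CE replicate 19, had ratios of 1.24 and 1.42, and the highest ratio in CE, 1.53, came from replicate 8 with a clock score of 5.69.

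Elovl2, which lengthens the longest polyunsaturated chains, stayed within 435 to 502 CPM in Control livers. It ranged from 415 to 605 CPM in CE, from 281 to 682 in Sirt2-/- and from 365 to 645 in Sirt2-/-/CE livers, so the group means of 467, 526, 487 and 542 CPM lay closer together than the mice within a mutant group. Sirt2-/- replicates 14 and 15 again had the lowest values, 281 and 319 CPM. Elovl5, which acts between both desaturases, ranged from 113 to 247 CPM in Control, from 87.3 to 237 in CE, from 82.3 to 200 in Sirt2-/- and from 112 to 298 in Sirt2-/-/CE livers. Its log2 fold change in Sirt2-/- against Control was -0.59 (SE 0.32, adjusted p = 0.406), with 3 of 5 mutants below every Control mouse.

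Elovl3 was at 30.3, 45.1, 6.14, 31.4 and 25.4 CPM in Control, at 45.2, 51.9, 28.4, 509 and 99.2 in CE, at 69.5, 55.6, 37.2, 56.4 and 39.3 in Sirt2-/-, and at 63.5, 53.1, 251, 751 and 1.38 in Sirt2-/-/CE livers. The highest 3 values came from cold-exposed mice of both genotypes, and the lowest value of all was also from a cold-exposed mouse. Its log2 fold change was 2.41 (SE 0.98, adjusted p = 0.379) in CE against Control and 2.12 (SE 0.97, adjusted p = 0.673) in Sirt2-/-/CE against Sirt2-/-. The highest value in each cold-exposed group belonged to the mouse with a clock score below 0. With the clock score as a covariate the CE log2 fold change was 0.75 (SE 0.99), and without the 4 mice below 0 it was 1.03 (SE 0.80). In Sirt2-/-/CE against Sirt2-/- the same fits gave 1.20 (SE 0.93) and 0.76 (SE 0.93), the value without Sirt2-/-/CE replicate 19 alone was 0.84, and on the log2(FPKM + 1) scale it was 0.40 (SE 1.04). Without CE replicate 9 alone, the value in CE against Control was 1.02.

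The lowest Elovl3 values, 1.38 and 6.14 CPM, came from the 2 mice with the lowest sum of 9 male-type liver genes (724 FPKM in Sirt2-/-/CE replicate 20 and 1090 FPKM in Control replicate 3). In those mice the sum of 9 female-type liver genes was the highest, at 837 and 257 FPKM, against a median of 26.2 FPKM over all 20 mice. Cyp4a12a, a male-type cytochrome P450 of arachidonic acid metabolism, was at 17.1 and 49.9 CPM there and at 112 to 471 CPM elsewhere. The part of these genes in the Elovl3 values was not tested.

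Lpcat3, the acyltransferase that builds arachidonoyl and linoleoyl phospholipids, was at 111, 99.1, 144, 81.2 and 98.9 CPM in Control, at 79.5, 79.6, 73.2, 59.5 and 63.7 in CE, at 56.2, 53.8, 81.3, 45.9 and 48.0 in Sirt2-/-, and at 63.8, 67.7, 55.0, 73.2 and 94.9 in Sirt2-/-/CE livers. All 5 CE mice lay below every Control mouse, and so did 4 of 5 Sirt2-/- mice, the fifth reaching 81.3 against the lowest Control value of 81.2. The log2 fold change was -0.91 (SE 0.18, adjusted p = 0.0340) in Sirt2-/- against Control, a 0.534-fold level, and -0.59 (SE 0.18, adjusted p = 0.230) in CE against Control. In the edgeR fit of all 20 mice with the standard filter, Lpcat3 was the only member past the threshold in any of the 4 comparisons or the interaction. Its call was lost on leaving out Control replicate 1, 2 or 3 or Sirt2-/- replicate 12, 14 or 15, with the fold change between -0.93 and -0.78 and the adjusted p between 0.0614 and 0.107. Emg1, which shares exon bases with it and held 18.6% to 52.8% of the counts of both genes, had a log2 fold change of 0.16 (SE 0.17) in Sirt2-/- against Control.

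In mutants the fitted difference of Lpcat3 between cold and room temperature was 0.31 (SE 0.18, adjusted p = 0.746), and the fitted differences in mutant and wild-type mice lay apart by 0.90 (SE 0.25, adjusted p = 0.375). Between Sirt2-/-/CE and CE the means were 70.9 ± 14.9 and 71.1 ± 9.20 CPM (SD, n = 5), with fitted bounds of -0.36 to 0.35 on the log2 scale (2 SE to each side).

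Acsl5, an acyl-CoA synthetase of liver and intestine, was at 294, 322, 435, 239 and 250 CPM in Control, at 259, 250, 151, 295 and 311 in CE, at 207, 195, 174, 155 and 176 in Sirt2-/-, and at 297, 233, 261, 301 and 385 in Sirt2-/-/CE livers. All Sirt2-/- mice lay below every Control mouse and below every Sirt2-/-/CE mouse. The log2 fold change was -0.77 (SE 0.19, adjusted p = 0.0584) in Sirt2-/- against Control and 0.70 (SE 0.19, adjusted p = 0.503) in Sirt2-/-/CE against Sirt2-/-. The cold effects in mutant and wild-type mice differed by 0.99 (SE 0.27, adjusted p = 0.349). With DESeq2, limma voom or a filter of at least 10 counts in every library Acsl5 was called in Sirt2-/- against Control, as it was on leaving out Control replicate 4 or CE replicate 8. Zdhhc6, which shares exon bases with it, had a log2 fold change of 0.16 (SE 0.10) in Sirt2-/- against Control. Acsl3, a synthetase of the endoplasmic reticulum and lipid droplets, had group means of 23.6, 26.9, 21.9 and 25.7 CPM in Control, CE, Sirt2-/- and Sirt2-/-/CE, with no group apart from another.

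**Figure D2:**
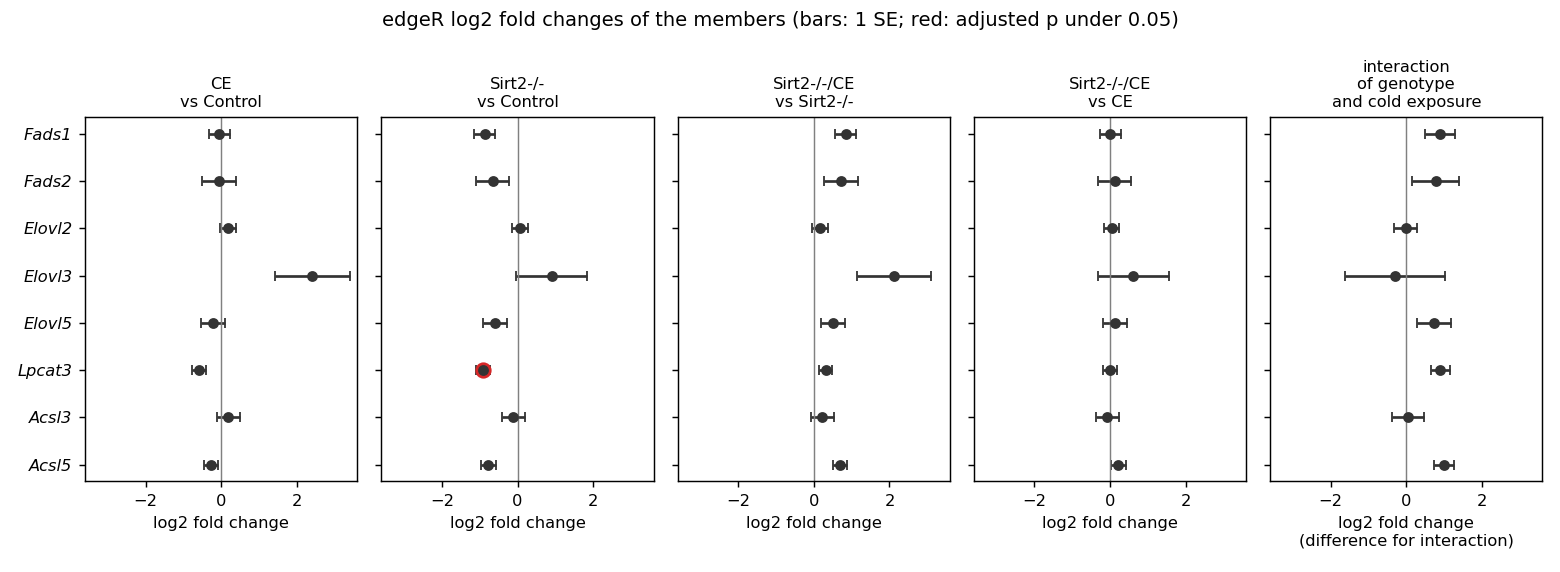
Log2 fold changes of the 8 genes from edgeR, with 1 SE to each side, in the 4 comparisons of groups and in the interaction, which is the difference of both cold effects. Lpcat3 in Sirt2-/- against Control (-0.91) is the only value at an adjusted p under 0.05, and the bars of Elovl3 are the widest in each panel.

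Against Control, the Sirt2-/- livers had lower fitted levels for 6 of the 8 genes, with a median log2 fold change of -0.62 beside 0.02 over all 15616 genes tested. The comparison sets the knockout beside wild type at room temperature. Wild-type mice came from a supplier and the knockout line was made by gene editing. Genotype and source of the mice thus cannot be told apart. Lpcat3 was the 1 member called, where 0.890% of all genes were called, 0.384% as higher and 0.506% as lower (60 and 79 genes). With library sizes in place of TMM, the fold changes of all genes in this comparison moved up by a median of 0.14, the split of calls turned to 330 higher and 89 lower, and Lpcat3 was at -0.77 and stayed called. At an unadjusted p under 0.05, 3 members (Fads1, Lpcat3 and Acsl5) were lower and 0 higher, beside 6.78% and 8.14% of all genes. Fads1 and Acsl5 were the 2 members whose groups did not overlap in CPM, as in 3.61% of all genes. Since the members were chosen with such values known, nothing is read from these shares. Of the marker lists, 2 of 8 hepatocyte markers (Apoa1 and Fah; median of the list 0.02) were lower at the same unadjusted threshold, as were 1 of 5 cholangiocyte, 1 of 5 leukocyte, 1 of 5 erythrocyte and 1 of 6 female-type liver genes tested and the 1 pancreas gene tested (Cela1, at -1.15), and no gene of these lists was called. Their part in the members' values was not tested.

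Cold in wild-type livers went with a median log2 fold change of -0.05 over the members in the fit of all 20 mice. With the clock score as a covariate, Fads1 was at 0.35 (SE 0.23), Fads2 at 0.69 (SE 0.34), Elovl2 at 0.35, Elovl3 at 0.75 and Acsl3 at 0.46, and Elovl5 (-0.29), Acsl5 (-0.29) and Lpcat3 (-0.43) were below 0, so both desaturases changed sign. Without the 4 mice of a clock score below 0, Fads1 was at 0.05 and Fads2 at 0.04. In the fit of all mice none was called (edgeR; 0.00640% of all genes were), 1 was higher (Elovl3) and 1 lower (Lpcat3) at an unadjusted p under 0.05, beside 5.50% and 5.22% of all genes, and Lpcat3 was the 1 member without overlap (3.04% of all genes). With limma voom and sample quality weights Lpcat3 was called in this comparison too (adjusted p = 0.0359). At the unadjusted threshold 1 of 5 leukocyte, 1 of 5 endothelial and 2 of 6 female-type liver genes tested were lower, the latter list with a median of -1.94, and their part was not tested.

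Cold in mutant livers gave positive fitted values for all 8 members, with a median of 0.61 beside 0.01 over all genes. Without the 4 mice of a clock score below 0, Elovl2 was at -0.24, Elovl5 at -0.04, Acsl3 at 0, Fads1 at 0.50, Fads2 at 0.27, Lpcat3 at 0.12, Elovl3 at 0.76 and Acsl5 at 0.60. With limma voom Acsl3 was at -0.06, Fads1 at 0.44 and Fads2 at 0.18, and without Sirt2-/- replicate 14 Acsl3 was at -0.01. None was called with edgeR, as for all genes (0% called). At an unadjusted p under 0.05, 3 members were higher (Fads1, Elovl3 and Acsl5) and 0 lower, beside 3.96% and 3.29% of all genes, and Acsl5 was the 1 member without overlap (0.743%). The 5 Sirt2-/- mice are shared with the comparison against Control, so opposite signs in these 2 comparisons follow in part from the same libraries. At the same unadjusted threshold 3 of 6 female-type liver genes tested (median of the list 1.96), 1 of 8 hepatocyte markers (Apoa1) and the 1 pancreas gene tested (Cela1, at 1.11) were higher. The female-type list summed to 15.3 to 47.7 FPKM in Sirt2-/- and 13.5 to 837 FPKM in Sirt2-/-/CE livers, and the part of these genes in the members' values, Elovl3 included, was not tested.

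Genotype in the cold left the members' median at 0.08. No member was called with edgeR (0.0128% of all genes were) or passed an unadjusted p of 0.05 (3.89% of all genes higher and 2.20% lower), and none was without overlap (1.22%). In this comparison 4 of 6 Kupffer cell markers and 5 of 5 endothelial markers were higher at an unadjusted p under 0.05, none of them being at 0 in every mouse. The summed level was 32.7 to 150 FPKM in CE and 113 to 156 in Sirt2-/-/CE livers for the Kupffer markers, and 9.26 to 47.5 and 52.4 to 80.3 FPKM for the endothelial ones. At the same unadjusted threshold 2 of 5 cholangiocyte markers were lower (summed level 22.4 to 39.4 FPKM in CE and 13.7 to 24.5 in Sirt2-/-/CE), 1 of 6 stellate cell markers was higher, and 3 of 6 female-type liver genes tested were higher (summed over all 9 listed, 5.63 to 40.9 and 13.5 to 837 FPKM). The part of these markers in the members' values was not tested, and a change in cell number and in RNA per cell cannot be told apart in bulk tissue. For the interaction, 0 members and 0% of all genes were called, and 3 members were above 0 at an unadjusted p under 0.05 (Fads1, Lpcat3 and Acsl5) and 0 below, beside 4.73% and 3.61% of all genes. Of the marker lists, 3 of 6 female-type liver genes tested, 1 of 8 hepatocyte markers and the 1 pancreas gene tested were above 0 at that threshold, and their part was not tested. DESeq2 likewise called 0 members in the interaction and in both comparisons with Sirt2-/-/CE mice.

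**Figure D3:**
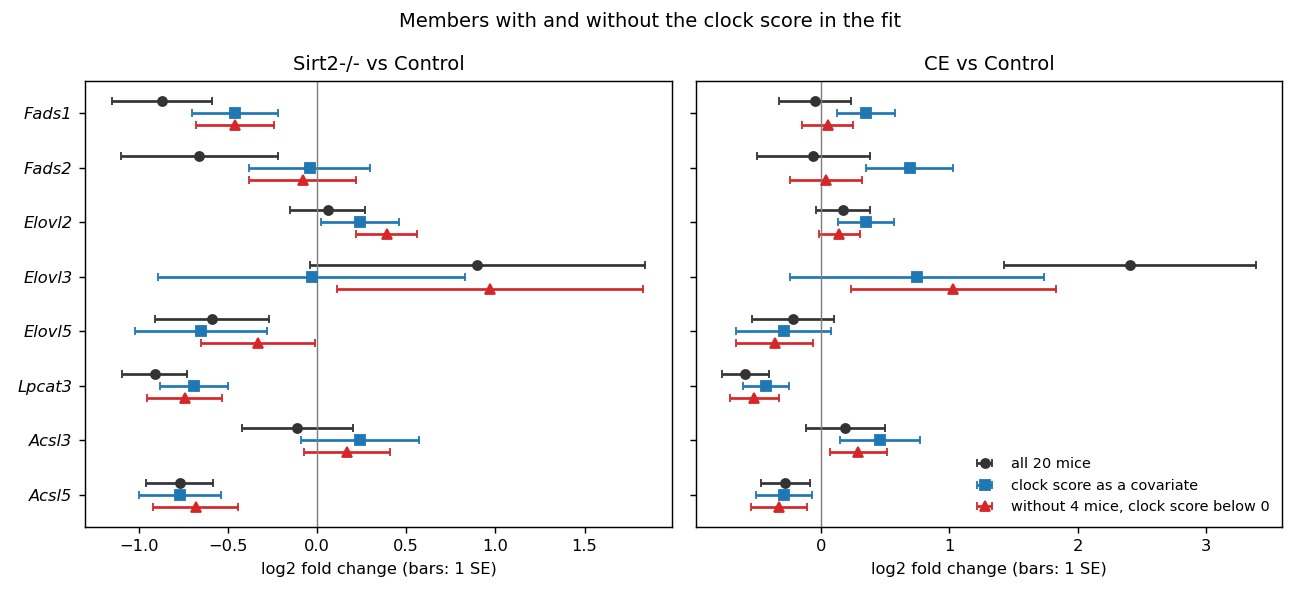
Log2 fold changes of the 8 genes (1 SE to each side) against Control from all 20 mice, with the clock score as a covariate, and without the 4 mice whose clock score was below 0. Fads2 in Sirt2-/- moved from -0.66 to -0.04 and -0.08 and Elovl3 in CE from 2.41 to 0.75 and 1.03, while Acsl5 in Sirt2-/- stayed between -0.77 and -0.68.

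The clock score moved with the groups, with 4 of 5 CE, 3 of 5 Sirt2-/- and 5 of 5 Sirt2-/-/CE mice below the lowest Control mouse, and its 3 subtracted genes had a median log2 fold change of 3.25 in Sirt2-/- and 3.06 in CE against Control. Without the 4 mice below 0, the log2 fold change in Sirt2-/- against Control was -0.46 (SE 0.22) for Fads1, -0.08 (SE 0.30) for Fads2, -0.33 (SE 0.32) for Elovl5, -0.74 (SE 0.21, adjusted p = 0.335) for Lpcat3 and -0.68 (SE 0.24) for Acsl5, with Elovl2 at 0.39, Elovl3 at 0.97 and Acsl3 at 0.17. With the score as a covariate and all mice kept, it was -0.46 (SE 0.24) for Fads1, -0.04 (SE 0.34) for Fads2, -0.69 (SE 0.19, adjusted p = 0.292) for Lpcat3 and -0.77 (SE 0.23) for Acsl5. In that fit Elovl3 was at -0.03 (SE 0.86), Elovl5 at -0.65 (SE 0.37), Elovl2 at 0.24 and Acsl3 at 0.24. Against the fit of all 20 mice without the score, the Acsl5 value (-0.77 there) moved little in size. The Lpcat3 value went from -0.91 to -0.74 without the 4 mice and to -0.69 with the covariate. The Fads1 value went from -0.87 to -0.46 in both fits. The Elovl5 value went from -0.59 to -0.33 without the 4 mice and was -0.65 with the covariate. The Fads2 value went to near 0, and the Elovl3 value did so with the covariate but not without the 4 mice. No member was called in either fit. The group and the clock score cannot be fully told apart with these mice.

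Within groups, Fads1 and Fads2 rose and fell together over the 20 mice. After each group's mean was removed, Pearson's r was 0.97 and Spearman's rho 0.95 (permutation within groups, adjusted p = 0.00216 and 0.00324 over 36 relations), and r was 0.95 without Sirt2-/- replicates 14 and 15. This was the 1 pair of 28 past an adjusted p of 0.05. Of the other pairs, 3 had the lowest p-values on both measures. For Elovl5 with Acsl5 r was 0.64 (rho 0.67, permutation adjusted p = 0.0760 and 0.0514), and 0.68 without the 2 mice farthest from the Elovl5 median. For Elovl2 with Elovl5 it was 0.59 (rho 0.65, permutation adjusted p = 0.0781 and 0.0514), and 0.50 without the 2 mice farthest from the Elovl2 median. For Elovl3 with Lpcat3 it was -0.58 (rho -0.58, permutation adjusted p = 0.0760 and 0.0725), and -0.65 without the 2 mice farthest from the Elovl3 median. None of the 8 relations with the clock score passed, with r of 0.74 for Fads2 (permutation adjusted p = 0.121), 0.69 for Fads1, 0.53 for Acsl3, 0.50 for Lpcat3, 0.46 for Elovl2, -0.41 for Elovl3, -0.07 for Elovl5 and -0.05 for Acsl5. Without Sirt2-/- replicates 14 and 15 it was 0.55 for Fads2 and 0.49 for Fads1.

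**Figure D4:**
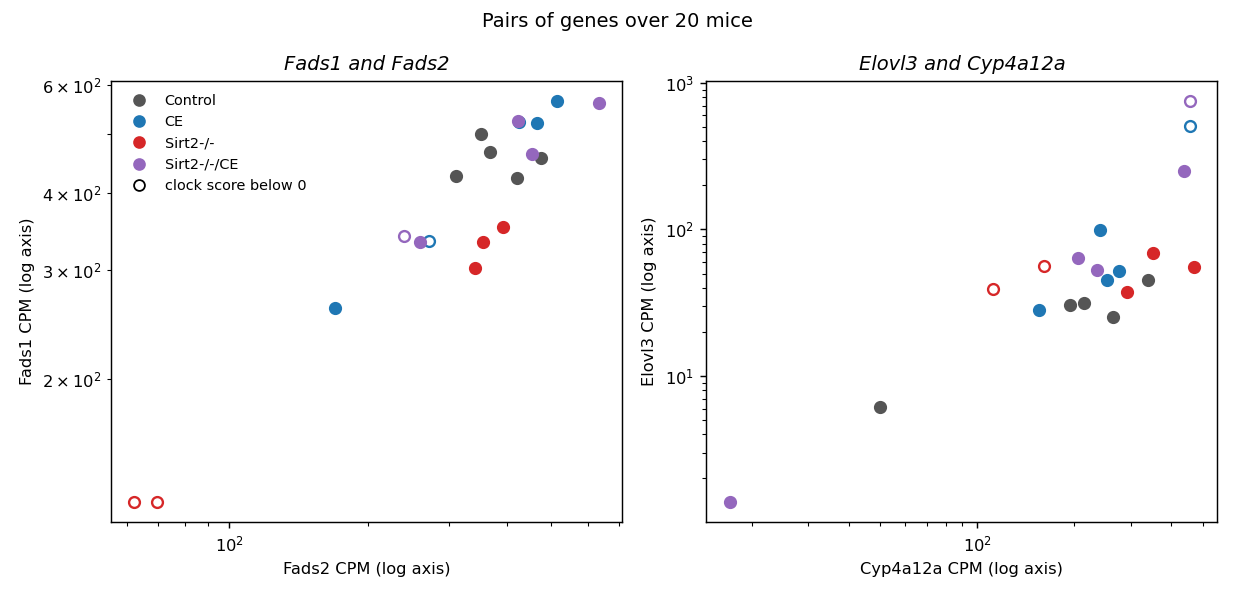
Fads1 against Fads2 and Elovl3 against Cyp4a12a in each of 20 mice (CPM, log axes), coloured by group, with mice of a clock score below 0 as open circles. Sirt2-/- replicates 14 and 15 sit at the low end of both desaturases, and Control replicate 3 and Sirt2-/-/CE replicate 20 at the low end of Elovl3 and Cyp4a12a.

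Across 10591 genes at a mean of at least 1 FPKM, likeness was taken as Pearson's r of log2 CPM over 20 mice with group means removed, and it is given as a description. Fads1 and Fads2 were each other's nearest gene, at 0.969, followed for Fads1 by Aco1 (0.875) and for Fads2 by Fam102a (0.919), with Pdxk on both lists (0.862 and 0.891). Elovl3 was most like the male-type genes Cyp4a12a (0.885) and Hsd3b5 (0.865), with Pitx3, which shares 10 exon bases with it, between them (0.875), and these values were 0.747, 0.740 and 0.724 without the 2 mice farthest from its median. Acsl3 was most like Insig1 (0.911), a known sterol-regulated gene, and Gm9234 (0.876) was also among its nearest 3. Without the 2 mice farthest from the Acsl3 median these values were 0.783 and 0.684. Acsl5 was most like Cd36 (0.825), a fatty acid transporter, then Rtn4 (0.816) and Paox (0.816). Without the 2 mice farthest from the Acsl5 median these were 0.682, 0.751 and 0.696. Scd1 (0.818) and 1500017E21Rik (0.814) were among the 3 genes nearest to Elovl5. Lpcat3 was most like Hnmt (0.868), Slc2a9 (0.848) and Rap1gap (0.834), and Elovl2 most like Avl9 (0.933), Hykk (0.931) and Klhl24 (0.926).

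Of 113 other genes of the pathway, 103 passed the filter on low counts. In Sirt2-/- against Control 2 were called, both lower. Scd1, which desaturates saturated fatty acids, fell from 5780 ± 2940 to 727 ± 486 CPM (SD, n = 5), a log2 fold change of -2.99 (SE 0.58, adjusted p = 0.0311). Dbi, the acyl-CoA binding protein, fell from 400 ± 30.4 to 199 ± 64.7 CPM, at -1.01 (SE 0.22, adjusted p = 0.0390). Both calls were lost without the 4 mice of a clock score below 0 (-2.58 and -0.74, adjusted p = 0.288 and 0.362) and on leaving out any 1 of Control replicates 1 to 3 or Sirt2-/- replicates 12, 14 and 15, and for Dbi also Control replicate 5 or CE replicate 7. At an unadjusted p under 0.05, 6 of the 103 were higher and 14 lower, where 8.14% and 6.78% of all genes were and 0.890% were called, and their median was -0.02 beside 0.02 over all genes.

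**Figure D5:**
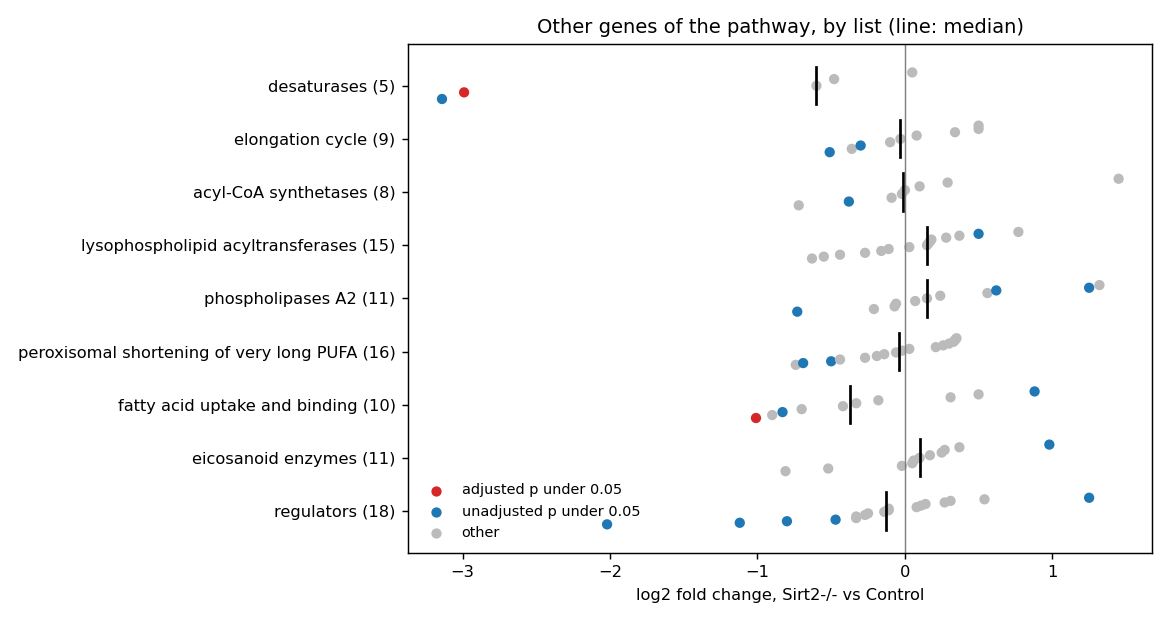
Log2 fold changes in Sirt2-/- against Control of the 103 other genes of the pathway tested, by list, with the number tested in parentheses and the median as a line. Red points are at an adjusted p under 0.05 (Scd1 and Dbi), and blue points at an unadjusted p under 0.05.

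By list, 2 of 5 other desaturases tested were lower at an unadjusted p under 0.05 (Scd1 and Scd3) and 0 higher, and 2 of 9 genes of the elongation cycle were lower (Tecr at -0.51 and Hsd17b12 at -0.30, both enzymes that every elongase needs). Of the other elongases, Elovl1 was at 0.34 (SE 0.20) and Elovl6 at -0.36 (SE 0.33). Of 8 other acyl-CoA synthetases 1 was lower (Slc27a5 at -0.38), and of 15 other acyltransferases 1 was higher (Agpat5 at 0.50). Of 11 phospholipases A2, 2 were higher and 1 lower (Pla2g16 at -0.73). Pla2g7, which breaks down platelet-activating factor, was at 1.25 (SE 0.32, adjusted p = 0.0644; 0.79 to 1.45 over all alternatives and single mice left out) and Pnpla6 at 0.62 (SE 0.21). Of 16 genes of peroxisomal shortening, 2 were lower, Abcd3 among them at -0.50, and of 10 genes of fatty acid uptake and binding 1 was higher (Fabp7 at 0.88) and 2 lower (Dbi and Fabp1, the latter at -0.83). Of 11 eicosanoid enzymes 1 was higher, the epoxide hydrolase Ephx1, at 0.98 (SE 0.24, adjusted p = 0.0517), with all 5 mutants above every Control mouse. The median log2 fold change was -0.60 for the other desaturases, -0.38 for uptake and binding, -0.13 for regulators, 0.15 for the acyltransferases and for the phospholipases, and between -0.04 and 0.10 for the remaining lists.

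Of 18 regulators tested, 1 was higher (Insig2) and 4 were lower (Srebf1, Scap, Pparg and Thrsp) at an unadjusted p under 0.05, and none was called with edgeR. Insig2, which holds SREBP in the endoplasmic reticulum, was at 1.25 (SE 0.44, adjusted p = 0.170) in Sirt2-/- and at 1.46 (SE 0.44, adjusted p = 0.226) in CE against Control. With the clock score as a covariate these were 0.30 and 0.65, without the 4 mice 0.79 and 0.96, and without CE replicate 9 alone the CE value was 0.95. Srebf1, which encodes SREBP1, was at -1.12 (SE 0.49, adjusted p = 0.285) and the lipogenic gene Thrsp at -2.02 (SE 0.80, adjusted p = 0.228; -2.56 to -1.12 over all alternatives and single mice left out) in Sirt2-/- against Control. Nr1h3 was at 0.14 (SE 0.14), Ppara at -0.33 (SE 0.53) and Mlxipl, a glucose-sensing factor, at -0.27 (SE 0.18), none past the threshold. Over all alternatives and single mice left out these ran from 0.06 to 0.28 for Nr1h3, from -0.54 to 0.20 for Ppara, the highest being that without the 4 mice of a clock score below 0, and from -0.45 to -0.12 for Mlxipl. Without Sirt2-/- replicate 14 alone, Nr1h3 was at 0.06 and Ppara at -0.05.

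In the other comparisons 0 of the 103 were called with edgeR, while DESeq2 called 3 in CE against Control, Dbi in Sirt2-/-/CE against Sirt2-/-, and Scd1 in the interaction. At an unadjusted p under 0.05, 5 were higher and 6 lower in CE against Control (5.50% and 5.22% of all genes), and 9 higher and 3 lower in Sirt2-/-/CE against Sirt2-/- (3.96% and 3.29%). In Sirt2-/-/CE against CE 6 were higher and 0 lower (3.89% and 2.20%), and in the interaction 13 were above and 1 below 0 (4.73% and 3.61%). In CE, Pnpla6 was at 0.80 (SE 0.21) and Hacd1 at 0.71 (SE 0.25), and Abcd2 was at -1.39 (SE 0.56; -0.71 without Control replicate 3 and -1.88 without CE replicate 10), Pparg at -1.24 (SE 0.28) and Acaa1b at -0.78 (SE 0.33). In mutants, cold went with 2.27 (SE 0.81) for Thrsp, 2.08 (SE 0.56) for Scd1 and 1.03 (SE 0.22) for Dbi, and with -1.15 (SE 0.32) for Pla2g7, -0.67 (SE 0.23) for Ephx1 and -0.55 (SE 0.22) for Lpgat1. Thrsp was at 1.45 there without Sirt2-/-/CE replicate 20 and at 0.49 with limma voom, Pla2g7 ran from -1.33 to -0.60 and Ephx1 from -0.90 to -0.39 over all alternatives and single mice left out. Between genotypes in the cold, Fabp4, which endothelial cells and macrophages also express, was at 1.15 (SE 0.35), in the comparison where 5 of 5 endothelial markers (median 1.29) and 4 of 6 Kupffer cell markers (median 0.80) were higher at an unadjusted p under 0.05. In the same comparison Acaa1b was at 0.93 (SE 0.33) and Fabp2 at 0.76 (SE 0.30). Among genes at a mean of at least 1 FPKM and an unadjusted p under 0.05, the interaction was largest for Scd1 at 2.88 (SE 0.77, adjusted p = 0.342), Thrsp at 2.59 (SE 1.11) and Abcd2 at 1.73 (SE 0.78), and lowest for Pla2g7 at -1.32 (SE 0.46). Over all alternatives and single mice left out it ran from 1.04 to 3.18 for Thrsp, from 0.95 to 2.23 for Abcd2 and from -1.52 to -0.67 for Pla2g7. Scd3, below that level, was at 4.87 (SE 1.92).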

How the data were processed

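Liver mRNA of 20 mice in 4 groups of 5 was sequenced on an Illumina NovaSeq (poly-A libraries). The deposited table gives, per gene and mouse, read counts and FPKM values that the authors made by mapping to mm10, and the aligner and the counting tool are not given in the sources used here. The table held 45306 genes, 9 lines without a gene were left out, and 35499796 to 53917339 counts per library set the precision. Samples were grouped by the labels, and p-values of group differences judge these differences against the spread between mice.

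Counts were tested with edgeR 4.0.16 (R 4.3.3, quasi-likelihood, TMM, all 20 libraries, filterByExpr with a minimum count of 10), adjusted by Benjamini-Hochberg over 15616 genes with a threshold of 0.05. CPM are TMM-scaled, and FPKM served for levels per length. The 8 members and the gene lists were chosen with earlier results of these data known, and the fits were tested on simulated data. Named genes were the members, Sirt2, 5 regulators, pathway genes called or with the 3 largest changes each way at an unadjusted p under 0.05 and 1 FPKM, and the 3 genes most like each member, with genes outside this rule chosen after their values were seen. Permutations within groups numbered 100000. Alternatives were DESeq2 1.42.0, limma 3.58.1 (voom with quality weights, and log2(FPKM + 1)), other scalings and filters, only the groups compared, a clock score covariate, each mouse left out and, chosen after seeing the data, the 4 mice with a clock score below 0 left out. Overlaps used GENCODE vM21. A few genes that the naming rule picks are not reported here.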

Additional observations from a re-analysis of the deposited data

Results flagged for a closer look

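In each group of 5 mice, the highest and lowest CPM of each member was compared with the nearest other mouse by Dixon's test. In 2 of 32 groups of values 1 mouse stood apart, and chance flags about 1 group in 20 if the values are normally distributed. The test was run on CPM and not on log2 CPM, so the flags hold for that scale. Elovl3 was at 509 CPM in CE replicate 9, with the next CE mouse at 99.2 CPM. Acsl3 was at 5.92 CPM in Sirt2-/- replicate 14, with the next Sirt2-/- mouse at 24.2 CPM. Both mice have a clock score below 0 (-1.25 and -2.45). The relations of both genes with the clock score over all mice are given above, and its part in these single values was not tested. No interaction among the members or the other pathway genes passed an adjusted p of 0.05 with edgeR.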

How the results depend on the processing

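No paired analysis was possible because the labels number the mice from 1 to 20 and no number recurs between groups. In Sirt2-/- against Control, 1 member (Lpcat3) was called with edgeR, 2 with DESeq2, with at least 10 counts in every library and with limma voom, and 0 with only the groups compared, with the clock score as a covariate or without the 4 mice of a clock score below 0, and leaving out 1 mouse at a time gave 0 to 2. In CE against Control, 1 member was called with limma voom in place of 0. Of the other pathway genes in Sirt2-/- against Control, 2 were called, against 4 with DESeq2, 4 with library size only, 1 with no filter, 7 with limma voom, 5 with log2(FPKM + 1), and 0 with only the groups compared, with the clock score as a covariate or without the 4 mice, and 0 to 4 on leaving out 1 mouse. In CE against Control, 3 were called with DESeq2 and 5 with limma voom, in place of 0, and leaving out 1 mouse gave 0 to 1, and DESeq2 called 1 in Sirt2-/-/CE against Sirt2-/- and 1 in the interaction, in place of 0. The causes of these differences were not tested. No called value changed sign under the 10 alternatives or on leaving out any of 20 mice. There were 3 log2 fold changes of members that moved by more than the within-group SD, all without the 4 mice, namely Elovl2 and Elovl5 in Sirt2-/-/CE against Sirt2-/- (-0.24 and -0.04) and Elovl2 in the interaction (-0.37). That SD is wide for Elovl3 (1.98) and Fads2 (0.82), so large shifts of these genes stay within it. With the clock covariate, Elovl3 in CE against Control went from 2.41 to 0.75 and Fads2 from -0.06 to 0.69. Of all genes, 139 were called in Sirt2-/- against Control, against 607 with DESeq2, 419 with library size only, 35 with no filter, 209 with at least 10 counts in every library, 29 with only the groups compared, 906 with limma voom, 329 with log2(FPKM + 1), 0 with the clock covariate, 0 without the 4 mice and 5 to 375 on leaving out 1 mouse. In CE against Control 1 gene was called, against 188 with DESeq2, 540 with limma voom, 0 with only the groups compared, 2 with the clock covariate, 2 without the 4 mice and 0 to 68 on leaving out 1 mouse. DESeq2 called 7, 31 and 41 genes in Sirt2-/-/CE against Sirt2-/-, in Sirt2-/-/CE against CE and in the interaction, in place of 0, 2 and 0. In Sirt2-/-/CE against CE, 1 gene was called with library size only and 1 without the 4 mice, 0 with only the groups compared, and 1 to 6 on leaving out 1 mouse, which gave 0 to 2 in the interaction. The interaction was not run with only the groups compared, since it needs all 4 groups. Gene counts show neither enzyme activity nor fatty acid content, and the members' calls rest on 5 mice per group.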

Other observations

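Around the members, 11 of 12 lipogenic genes linked to SREBP1c were tested, and all 11 had negative fitted values in Sirt2-/- against Control, with a median log2 fold change of -1.12 beside 0.02 over all genes tested. Of these 1 was called (Scd1), where 0.890% of all genes were, and this call was lost with the clock score as a covariate (adjusted p = 0.173) and without the 4 mice of a clock score below 0 (adjusted p = 0.288). Fatty acid synthase, Fasn, was at -1.41 (SE 0.53, edgeR adjusted p = 0.207), Acly, which makes cytosolic acetyl-CoA, at -1.01 (SE 0.37, adjusted p = 0.191) and Acacb, an acetyl-CoA carboxylase, at -1.43 (SE 0.35, adjusted p = 0.0518). In Sirt2-/-/CE against Sirt2-/- all 11 had positive fitted values, with a median of 0.75, and these comparisons share the 5 Sirt2-/- mice. Scd1, Thrsp, Srebf1, Gpam and Elovl6 are also on the pathway lists.

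Of 14 genes linked to PPARA, 11 had positive fitted values in Sirt2-/- against Control, with a median of 0.32. Cyp4a14, a fatty acid omega-hydroxylase, was the 1 called (0.890% of all genes) and rose, at 2.97 (SE 0.51, edgeR adjusted p = 0.0199), with all 5 mutants above every Control mouse, and Cyp4a10 was at 1.33 (SE 0.37, adjusted p = 0.0787). The Cyp4a14 value was 2.85 with the clock score as a covariate (adjusted p = 0.159) and 2.56 without the 4 mice of a clock score below 0 (adjusted p = 0.228), and its call was also lost without Control replicate 2 or Sirt2-/- replicate 14 (adjusted p = 0.0620 and 0.0667). The lists and their genes were chosen with earlier results of these data known.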
